A study of Mus musculus with 4 samples.

Results

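Cholesterol and fatty acids are built from the same acetyl-CoA, and 34 genes of these routes and their control were compared between CD4+CD25+ T-cells that did (IL-10+) and did not (IL-10-) stain for secreted IL-10. The cells came from mice treated with CD28SA, a superagonistic antibody to CD28. By the brightest probe set of each gene, 9 of 17 measured genes of cholesterol synthesis rose and 3 fell in IL-10+ cells. Of 8 genes of fatty acid synthesis 5 fell and 1 rose. Over all 18193 genes, 8.37% rose and 22.9% fell. Of the 11040 genes above the median level, which hold all measured members, 13.0% rose and 38.4% fell when fitted alone. With the probe sets of a gene averaged, 10 sterol genes rose and 1 fell, and 2 fatty acid genes rose and 3 fell. Over all genes these shares were then 12.2% and 18.4%. The gene of the sterol regulator SREBP-2, Srebf2, rose, while those of SREBP-1, Srebf1, and of their escort, Scap, fell. The members were named as genes of sterol synthesis, fatty acid synthesis, SREBP processing or sterol transport. Of the 34 genes, 33 had at least 1 probe set that the platform annotation maps to that gene alone, with 77 probe sets in all, and Acat2 was not analysed here. Where a gene had several, it is described first by its brightest, chosen by the average of the 4 arrays. All of these passed, since no filter on low values was used. The words rose and fell refer to IL-10+ relative to IL-10- cells and are used at an adjusted p under 0.05 from limma. A positive difference, read as log2, means a higher value in IL-10+ cells.

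Gene expression was measured on 4 arrays, 2 of IL-10+ and 2 of IL-10- samples, from C57Bl/6 mice aged 6 to 12 weeks. All samples share the CD28SA injection 3 days before, the isolation of CD4+CD25+ cells from lymph nodes, and a night of culture with 2 µg/ml of antibody to CD3, 5 µg/ml of antibody to CD28 and 200 U/ml of IL-2. Only then were they sorted by a secretion assay for IL-10. The gate did not include Foxp3, the factor that defines regulatory T-cells, and nothing says whether samples of a group came from separate mice, so p-values measure the spread between these arrays, which may be technical. Il10 itself was at 12.02 and 12.00 in IL-10+ samples, above the 10.41 and 10.37 of the others, in the direction of the sort.

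Cholesterol is made from acetyl-CoA through mevalonate, farnesyl diphosphate and squalene, and the mevalonate steps also feed the prenylation of small GTPases. Fatty acid synthesis turns citrate into cytosolic acetyl-CoA and malonyl-CoA, from which fatty acid synthase builds chains that are then elongated and desaturated. Both routes are driven by the membrane-bound SREBP factors. SCAP escorts these to the Golgi when sterols are low, INSIG proteins hold them back when sterols are high, SREBP-2 acts mainly on sterol genes and SREBP-1 more on fatty acid genes. Activated T-cells raise both routes to build membranes.

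The arrays carried other differences that ran along with the sort. Of 9 measured markers of B cells and plasma cells 8 fell and 0 rose in IL-10+ samples, and their summed level was 9.75 to 9.77 there and 11.56 to 11.59 in the IL-10- samples (log2 of the summed linear values). Pax5, a defining factor of B cells, was low in both (6.15 and 6.18). Of 7 proliferation genes 6 fell and 0 rose, with summed levels of 14.04 against 14.56 to 14.65. Myeloid markers had 3 of 8 higher and 1 lower (10.73 to 10.75 against 10.27 to 10.31), NK cell markers 2 of 4 lower (7.98 against 8.49 to 8.59) and CD8 T-cell markers 1 of 2 lower (8.25 to 8.32 against 8.45 to 8.58). Of 8 markers of T-cells and regulatory T-cells 2 rose (Cd4 by 0.51 and Ctla4 by 0.87) and 2 fell (Foxp3 and Ikzf2), with summed levels of 15.36 to 15.38 against 15.22 to 15.34. Foxp3 was expressed in both groups, with a mean of 10.83 in IL-10+ cells and a higher one of 11.55 in IL-10- cells. The 5' probe sets of 4 transcripts added for labelling were higher on the IL-10+ arrays by 1.11 (median) and their 3' probe sets by 0.089. The part of these differences in the results below was not tested, and in such bulk samples fewer cells of a type and less RNA per cell cannot be told apart.

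Most promoters of the sterol genes shared a feature that a minority of all genes hold. Only 5 fatty acid genes had a promoter here, too few to tell their share from that of all genes. The table of RefSeq promoters used here (build GRCm38.p6) holds the 250 bases before an annotated start for 26 of the 34 genes, with 34 starts, and none for Stard4, Fads1, Scd1, Scd2, Fdps, Sqle, Fdft1 and Abcg1. The pentamer CCAAT, on either strand, was in 14 of 15 sterol genes (Acat2 the exception), in 4 of 5 regulators and in 1 of 5 fatty acid genes, against 37.5% of all 27025 genes of the table and 40.4% of 8958 genes with a probe set above the median level of the arrays. Counted by start, it was in 77.8% of the sterol starts and 33.8% of all starts. CCAAT is known as the letters that NF-Y binds, a factor that works with SREBP. Mvd and Dhcr7, whose brightest probe sets fell in IL-10+ cells, also hold it, though Dhcr7 not at each of its annotated starts. The Sp1 letters GGGCGG were in 14 of 15 sterol genes and 2 of 5 fatty acid genes, against 35.4% of all genes and 63.5% of those above the median level. The E-box CACGTG was in 3 of 15 sterol genes (Hsd17b7, Sc5d and Dhcr7), 2 of 5 regulators and 0 of 5 fatty acid genes. It was in 6.9% of all genes and 9.9% of those above the median level. By start it was in 16.7% of the sterol starts and 6.0% of all starts. TCACNCCAC, the core of sterol regulatory elements in its strict form, was in Hmgcs1 alone among the members and in 1.2% of all genes. A match is a run of letters and not a site that was shown to be bound, and no match says only that these letters are not in the window.

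The sequences below run 5' to 3' on the strand of the gene and end at the last base before the start. They show 3 sterol genes, with the 1 member that holds TCACNCCAC, and the main lyase and synthase of the fatty acid arm. Capitals mark CCAAT, which reads ATTGG where it lies on the other strand, and TCACNCCAC. In Fasn a match on one strand overlaps one on the other.
Hmgcs1 (chr13:119690101-119690350, plus strand, sterol arm): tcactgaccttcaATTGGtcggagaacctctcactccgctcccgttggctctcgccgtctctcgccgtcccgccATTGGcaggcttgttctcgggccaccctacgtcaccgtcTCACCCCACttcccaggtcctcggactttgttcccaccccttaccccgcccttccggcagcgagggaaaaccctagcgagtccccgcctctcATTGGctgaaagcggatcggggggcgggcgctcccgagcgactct
Idi1 (chr13:8885356-8885605, plus strand, sterol arm): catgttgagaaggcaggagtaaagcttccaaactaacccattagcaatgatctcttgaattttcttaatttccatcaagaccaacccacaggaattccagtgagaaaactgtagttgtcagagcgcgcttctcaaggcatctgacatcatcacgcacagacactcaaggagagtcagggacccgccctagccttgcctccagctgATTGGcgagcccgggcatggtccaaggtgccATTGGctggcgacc
Msmo1 (chr8:64733579-64733828, minus strand, sterol arm): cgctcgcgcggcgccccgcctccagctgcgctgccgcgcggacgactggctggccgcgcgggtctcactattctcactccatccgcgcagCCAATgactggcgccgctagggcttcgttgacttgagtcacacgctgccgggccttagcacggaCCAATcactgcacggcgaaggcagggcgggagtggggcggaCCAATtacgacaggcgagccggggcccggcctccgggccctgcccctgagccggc
Fasn (chr11:120824548-120824797, minus strand, fatty acid arm): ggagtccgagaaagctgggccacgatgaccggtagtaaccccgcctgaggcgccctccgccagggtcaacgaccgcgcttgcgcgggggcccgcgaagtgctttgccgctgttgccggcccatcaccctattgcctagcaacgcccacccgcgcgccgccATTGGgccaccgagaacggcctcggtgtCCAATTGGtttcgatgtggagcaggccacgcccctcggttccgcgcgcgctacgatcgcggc
Acly (chr11:100528001-100528250, minus strand, fatty acid arm): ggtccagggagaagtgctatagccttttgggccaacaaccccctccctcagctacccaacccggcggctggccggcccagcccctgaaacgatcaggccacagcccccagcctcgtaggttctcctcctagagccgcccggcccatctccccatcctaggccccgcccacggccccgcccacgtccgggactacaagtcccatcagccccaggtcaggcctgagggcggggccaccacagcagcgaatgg

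**Figure D1:**
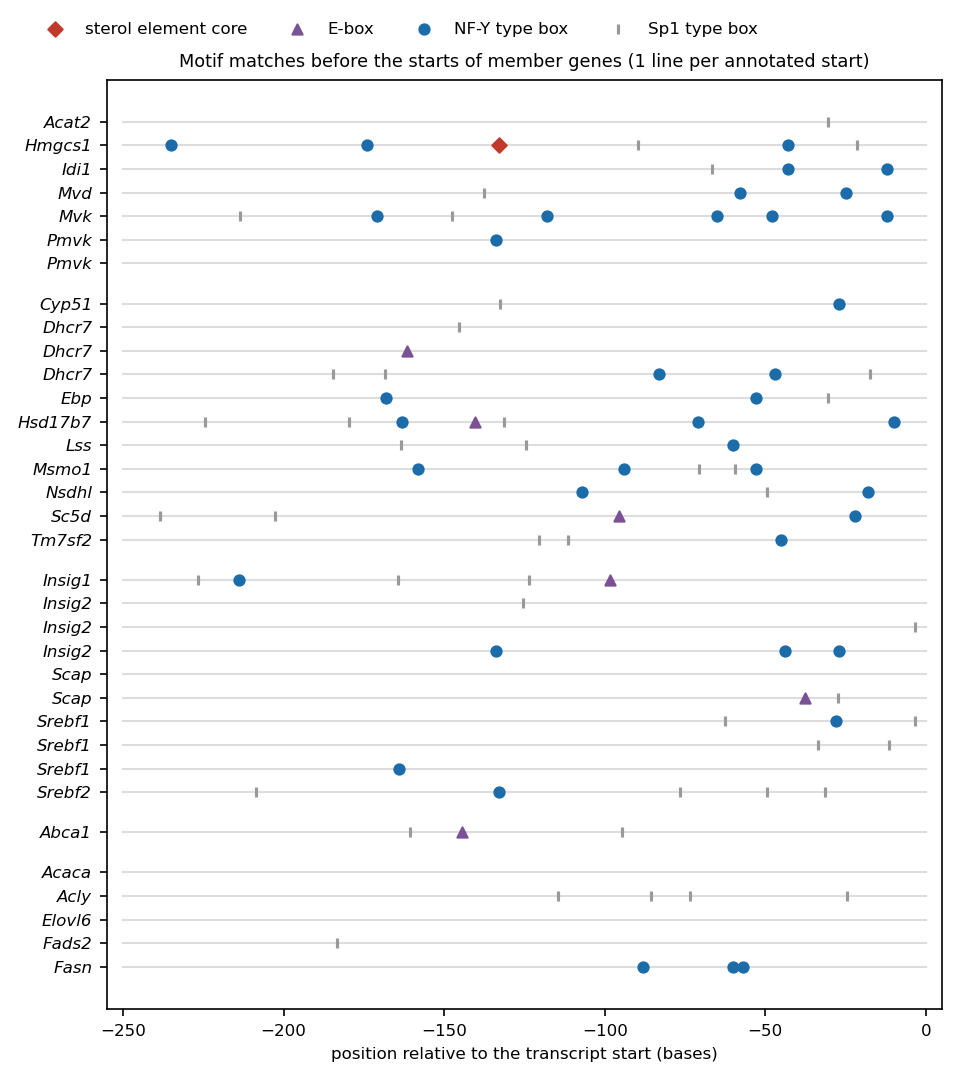
Positions of motif matches (horizontal axis, bases relative to the transcript start) in the 250 bases before each annotated start of the member genes, 1 line per start, from the mevalonate steps at the top to the fatty acid arm at the bottom. The boxes of NF-Y type (circles) stand in 14 of 15 sterol genes and 1 of 5 fatty acid genes, against 37.5% of all genes.

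Over all 33 measured members 12 rose, 11 fell and 10 did not pass, where 8.37% of all genes rose and 22.9% fell. The members thus rose and fell in near equal number. Their median difference was 0.0045 on the log2 scale, against -0.015 over all genes. By arm they parted in their brightest probe sets. The median was 0.25 over the 17 sterol genes and -0.44 over the 8 fatty acid genes. Measured from the IL-10- mean of each gene, the sterol median was 0.20 and 0.30 on the IL-10+ arrays, and the fatty acid median -0.47 and -0.41. Neither arm was tested as a whole, nor was the difference between them. All 33 measured members lie among the 11040 genes above the median level. When these genes were fitted alone, 13.0% rose and 38.4% fell, with a median difference of -0.102. In that fit 12 members rose and 12 fell. Of the sterol genes 9 rose and 3 fell there, and of the fatty acid genes 1 rose and 6 fell. At the stricter limit of the methods, a 2-fold difference and an adjusted p under 0.001, 1 member remained by its brightest probe set, Elovl6 among the lower ones, where 0.462% of all genes were higher and 0.792% lower. This count depends on the log base: legends of the study give differences as natural logs of the fold change. Read so, 2 members would be past the limit among the higher ones (Fdps and Idi1) and 4 among the lower (Dhcr7, Elovl6, Scap and Srebf1), beside 1.20% and 3.32% of all genes. The highest deposited value, 14.42, would be 21906 in linear units on the log2 scale and 1828561 on the natural one, where a 16-bit scan ends at 65535. Calls at an adjusted p under 0.05 do not depend on the base.

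**Figure D2:**
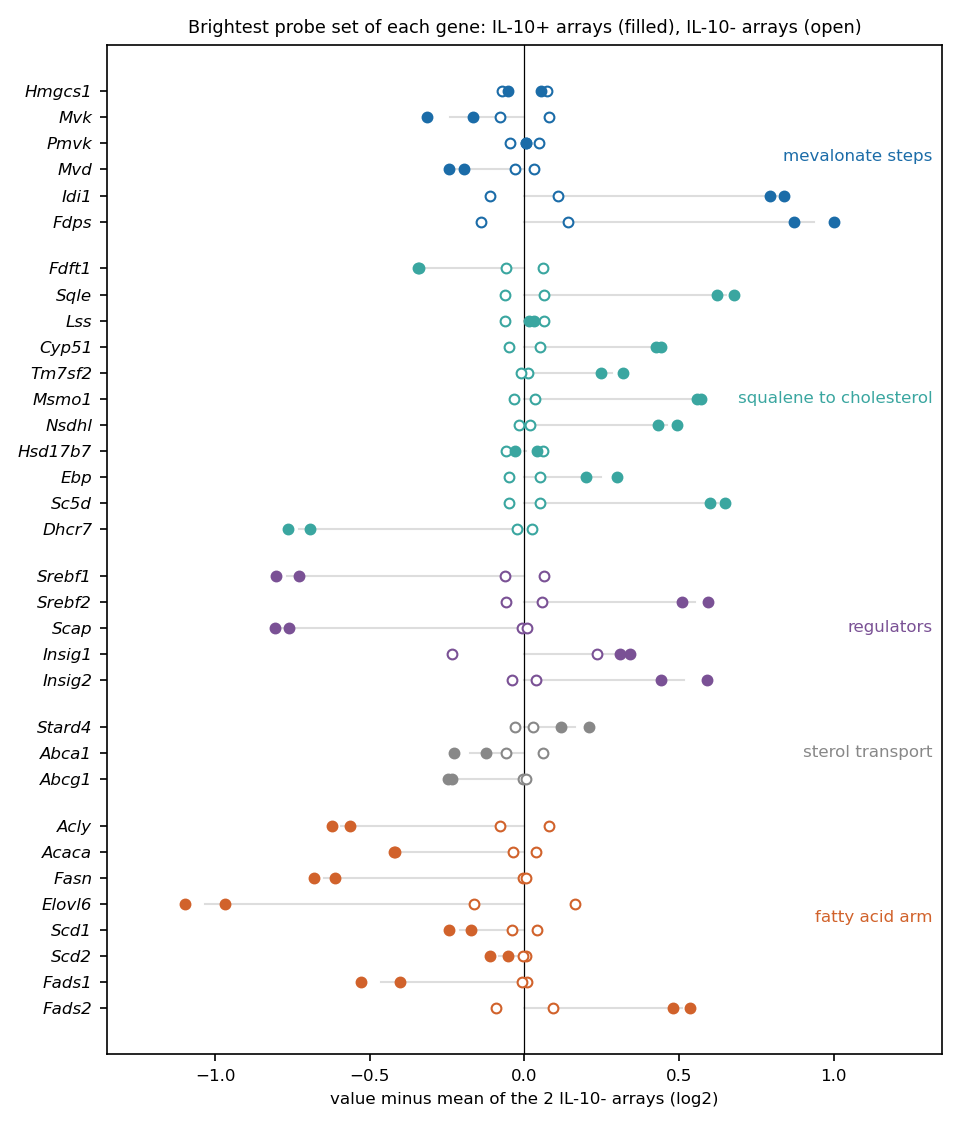
Values of the brightest probe set of each member on each array as a difference from its IL-10- mean (log2, horizontal axis), IL-10+ arrays filled and IL-10- arrays open. Fdps and Idi1 stand farthest to the right and Elovl6 farthest to the left.

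**Figure D3:**
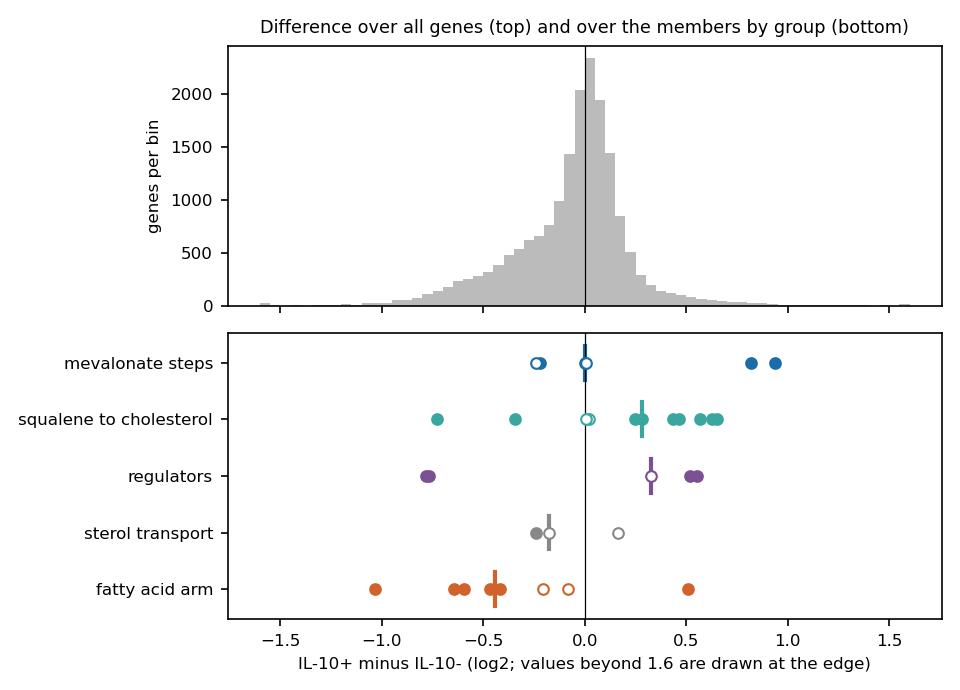
Differences between the groups (log2, horizontal axis) over the brightest probe sets of 18193 genes as a histogram, and below it those of the members by group, filled where the test was passed, with the median as a bar. The median of the fatty acid arm lies at -0.44 and that of all genes at -0.015.

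In the mevalonate steps 2 of 6 measured genes rose and 1 fell by their brightest probe sets, beside 8.37% and 22.9% of all genes. The median difference of the 6 was 0.0026. The largest rises by the brightest probe sets were at the end of the route. Fdps makes farnesyl diphosphate, from which both sterols and prenyl groups derive, and stood at 12.07 and 12.20 on the IL-10+ arrays. Both lay above the 11.34 and 11.06 of the IL-10- arrays, by 0.94 in the mean (standard error 0.10, adjusted p = 0.000398). The second, far dimmer probe set of Fdps differed by -0.02 (adjusted p = 0.885). Idi1, the isomerase that makes the allylic C5 unit, went from 10.22 and 10.44 to 11.12 and 11.17 (difference 0.82, standard error 0.08, adjusted p = 0.000337), and its second probe set also rose (0.41). Hmgcs1, the synthase at the entry of the pathway, was level by its brightest probe set, with 11.77 and 11.66 against 11.64 and 11.79. Its other 4 probe sets rose, by 1.27, 0.53, 0.32 and 0.31, and with the mean over its probe sets Hmgcs1 rose by 0.48 (adjusted p = 0.000545).

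The kinases and the decarboxylase between these ends were not raised by their brightest probe sets. Mvd, the decarboxylase, fell from 8.97 and 9.02 to 8.80 and 8.75 (-0.22, adjusted p = 0.0368), a small difference that did not pass with IL-10+ replicate 1 (-0.24, adjusted p = 0.134), IL-10+ replicate 2 (-0.20, 0.232) or IL-10- replicate 4 (-0.19, 0.0804) left out, nor after quantile normalization (-0.15, 0.125). Its probe set without a mark for shared sequence differed by 0.08. Mvk, mevalonate kinase, had 7.49 and 7.63 in IL-10+ cells against 7.88 and 7.72 (-0.24, adjusted p = 0.0683), and passed without IL-10- replicate 4 (-0.32, 0.00994) and after median centring (-0.32, 0.0135). Its dimmer probe set rose by 0.40 (adjusted p = 0.023), and the mean of both differed by 0.08 (0.538). Pmvk, the next kinase, was at 9.61 and 9.61 against 9.55 and 9.65, a difference of 0.0056 with a standard error of 0.07.

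From squalene to cholesterol 7 of 11 genes rose and 2 fell by their brightest probe sets, beside 8.37% and 22.9% of all genes. The median difference of the 11 was 0.28. Sqle, squalene epoxidase, the first oxygen-requiring step, rose from 9.70 and 9.83 to 10.39 and 10.45 (difference 0.65, standard error 0.07, adjusted p = 0.000427). Sc5d, a desaturase of the late steps, rose from 9.96 and 10.06 to 10.61 and 10.65 (0.62, adjusted p = 0.000411), while 1 of its 2 dimmer probe sets fell (-0.23, adjusted p = 0.0491) and the mean over the 3 did not pass (0.17, adjusted p = 0.0582). The next 3 genes encode enzymes that remove the methyl groups of lanosterol. Cyp51, which removes the first methyl group of lanosterol, went from 10.63 and 10.72 to 11.12 and 11.10 (0.43), and a second probe set rose by 0.42. Msmo1, the oxidase of the next methyl groups, went from 10.65 and 10.71 to 11.24 and 11.25 (0.57), with 0.85 in its dimmer probe set. Nsdhl, the dehydrogenase that follows it, went from 9.54 and 9.58 to 9.99 and 10.05 (0.46, adjusted p = 0.00129). In each of these genes both IL-10+ arrays were higher than both IL-10- arrays. With 2 arrays a group an exact test of this order cannot go below p = 0.333, and its share over all genes is not given here.

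Smaller rises came from Tm7sf2, a sterol reductase, from 7.52 and 7.49 to 7.75 and 7.82 (0.28, adjusted p = 0.0131), and from Ebp, the sterol isomerase, from 10.41 and 10.31 to 10.56 and 10.66 (0.25, adjusted p = 0.0337). Neither passed with an IL-10+ array left out (Tm7sf2 at 0.32 with adjusted p = 0.0512 without replicate 1 and 0.25 with 0.125 without replicate 2, Ebp at 0.30 with 0.0761 and 0.20 with 0.237). Ebp also did not pass without IL-10- replicate 4 (0.20, adjusted p = 0.0769) or after median centring (0.17, 0.102). Hsd17b7, the ketoreductase, was level in its brightest probe set, one marked as able to match other sequences (8.27 and 8.20 against 8.17 and 8.29). The 2 probe sets of Hsd17b7 that come next rose, by 0.73 and 0.61. Lss, lanosterol synthase, had 9.15 and 9.17 against 9.08 and 9.20, and its difference was 0.02 with a standard error of 0.07, beside 0.02 and -0.20 (adjusted p = 0.0795) in its dimmer probe sets.

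Both ends of this stretch went the other way. Dhcr7 catalyses the last step to cholesterol and fell from 8.71 and 8.76 to 8.04 and 7.97 (-0.73, standard error 0.07, adjusted p = 0.000185). This was the largest fall among the 17 sterol genes, and it rests on 1 probe set. Fdft1, squalene synthase, the first enzyme committed to sterols, fell from 10.87 and 10.99 to 10.59 and 10.58 in its brightest probe set (-0.34, adjusted p = 0.00748). That probe set carries the mark for shared sequence, and the brightest one without it differed by 0.12 (adjusted p = 0.226), so the fall of Fdft1 depends on which probe set stands for it.

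The regulators divided between the SREBP genes. Srebf2 rose from 9.62 and 9.50 to 10.07 and 10.16 (0.55, standard error 0.07, adjusted p = 0.000984), and its dimmer probe set differed by -0.02. Srebf1 fell from 10.71 and 10.84 to 10.05 and 9.97 (-0.77, standard error 0.07, adjusted p = 0.000222), read by 1 probe set. Read on the log2 scale, these are a 1.47-fold rise and a 1.70-fold fall. The arrays measure messages, and SREBP activity is set by cleavage of the protein, which was not measured. Scap fell from 9.52 and 9.53 to 8.76 and 8.72 (-0.78, adjusted p = 0.000111), while its dimmer probe set differed by 0.06 (adjusted p = 0.619). Insig2, one of the anchors that retain SCAP, rose from 8.68 and 8.76 to 9.16 and 9.31 (0.52, adjusted p = 0.00166), while its other 2 probe sets differed by 0.05 and -0.03, and with the mean over the probe sets it did not pass (0.18, adjusted p = 0.0793). Insig1, the other anchor and a target of SREBP-2, was at 9.56 and 9.59 in IL-10+ cells and at 9.02 and 9.49 in IL-10- cells. Its IL-10- arrays were far apart, and its difference of 0.33 (standard error 0.14, adjusted p = 0.123) passed without IL-10- replicate 4 (0.56, adjusted p = 7.16e-05) and after quantile normalization (0.42, 0.0388).

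Of the 3 sterol transport genes 1 fell by its brightest probe set and 0 rose, beside 22.9% and 8.37% of all genes. Over their 8 probe sets 3 rose and 2 fell, beside 13.6% and 16.2% of all probe sets. Abcg1, an exporter of cholesterol that sterol-sensing LXR receptors induce, fell from 9.01 and 9.02 to 8.78 and 8.77 (-0.24, adjusted p = 0.0216), and its dimmer probe set by -0.75 (adjusted p = 0.00127). Without IL-10+ replicate 1 the former was at -0.25 (adjusted p = 0.126) and without replicate 2 at -0.23 (0.144), and it did not pass in either case, nor after quantile normalization (-0.17, 0.077). Abca1, another such exporter, differed by -0.18 in its brightest probe set (adjusted p = 0.123), which passed without IL-10- replicate 3 (-0.24, 0.0362) and after median centring (-0.25, 0.0362), while its 2 dimmer ones rose, by 0.37 and 0.29. Stard4, a carrier of sterols between membranes, had 10.59 and 10.50 against 10.35 and 10.41 (0.16, adjusted p = 0.115, and 0.28 with 0.0189 after quantile normalization). The second probe set of Stard4 rose from 9.19 and 9.25 to 10.66 and 10.75 (1.48, adjusted p = 1.41e-05).

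By their brightest probe sets, genes at each stage of the fatty acid arm from citrate to elongation fell. For Acly and Acaca another probe set rose. Elovl6, which elongates palmitate to stearate, fell from 9.01 and 9.34 to 8.21 and 8.08 (-1.03, standard error 0.11, adjusted p = 0.000375), a 2.05-fold difference on the log2 scale, and its other 2 probe sets fell as well (-0.49 and -0.22). Fasn, fatty acid synthase, went from 9.85 and 9.86 to 9.24 and 9.17 (-0.65, standard error 0.06, adjusted p = 0.000278), read by 1 probe set. Acaca, the carboxylase that makes malonyl-CoA, went from 8.78 and 8.85 to 8.40 and 8.39 (-0.42, adjusted p = 0.00209). Whereas the 3 probe sets of Elovl6 agreed in direction, the dimmer one of Acaca rose by 0.65 (adjusted p = 0.00108).

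Acly, which cleaves citrate to acetyl-CoA for both routes, fell from 11.67 and 11.83 to 11.18 and 11.12 (-0.59, adjusted p = 0.000872). Its second brightest probe set, without the mark for shared sequence, differed by -0.03 (adjusted p = 0.791), and the third rose by 0.92, so a fall of Acly is not a property of all its probe sets, and their mean differed by -0.0001. Fads1, a desaturase of polyunsaturated fatty acids, fell from 8.78 and 8.76 to 8.24 and 8.37 (-0.46, adjusted p = 0.00186), with its dimmer probe set at 0.32 (adjusted p = 0.0152) and the mean of both short of the threshold (-0.07, 0.342). Fads2, the desaturase that acts before Fads1 in the same route, was the only one of the 8 to rise by its brightest probe set. It went from 6.69 and 6.87 to 7.26 and 7.32 (0.51, adjusted p = 0.00226). The second probe set of Fads2 also rose (0.43, adjusted p = 0.00463), and the dimmest differed by -0.20 (0.0527). Scd1, a stearoyl-CoA desaturase, had 7.31 and 7.39 against 7.52 and 7.60 (-0.21, adjusted p = 0.0541), just short of the threshold, and passed without IL-10- replicate 3 (-0.25, 0.0243), after quantile normalization (-0.23, 0.0323) and after median centring (-0.28, 0.0149). It also passed with dim probe sets left out (adjusted p = 0.0382), with the brightest ones alone (0.0428) and with the mean of its 2 probe sets (0.0304).

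Scd2, the paralog of Scd1, gave the widest disagreement between probe sets among the members. Its brightest was level, with 12.14 and 12.08 in IL-10+ cells against 12.19 and 12.19 (-0.08, standard error 0.06, adjusted p = 0.397). The 2 others went from 8.48 and 7.77 to 10.05 and 10.17 (1.99, adjusted p = 0.000277) and from 6.18 and 6.31 to 8.28 and 8.41 (2.10, adjusted p = 6.48e-06). With the mean over its 3 probe sets Scd2 rose by 1.34.

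Over all probe sets, fewer of the sterol arm fell and those of the fatty acid arm went both ways in near equal number. Of the 38 probe sets of sterol genes 19 rose and 4 fell, against 13.6% and 16.2% of all 45037 probe sets. Of the 22 of fatty acid genes 7 rose and 8 fell. At least 1 probe set rose for 12 of 17 sterol genes and 5 of 8 fatty acid genes, where it was 18.9% of all genes. At least 1 fell for 4 of the sterol genes and again 5 of the fatty acid genes, where it was 27.0%. Such shares depend on the number of probe sets per gene. There were 38 for 17 sterol genes and 22 for 8 fatty acid genes, against 34945 for 18193 genes. Past the stricter limit on the log2 reading there were 4 member probe sets among the higher ones, of Scd2 (both dimmer ones), Stard4 and Hmgcs1, and 1 among the lower, of Elovl6, beside 1.72% and 0.575% of all probe sets. Of 24 members with several probe sets 4 had some that rose and some that fell (Acaca, Acly, Fads1 and Sc5d), which is 16.7% against 12.0% of 9010 such genes. Dimmer probe sets of members lay above the brightest of their gene by 0.34 (median of 44) and by 0.077 over all genes (16752 probe sets). The share that lay above was similar, 65.9% for members and 61.1% over all genes. The 5' probe sets of the added transcripts also lay higher on IL-10+ arrays, by 1.11. Where on its transcript each member probe set lies was not analysed here, and the part of this difference was not tested.

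**Figure D4:**
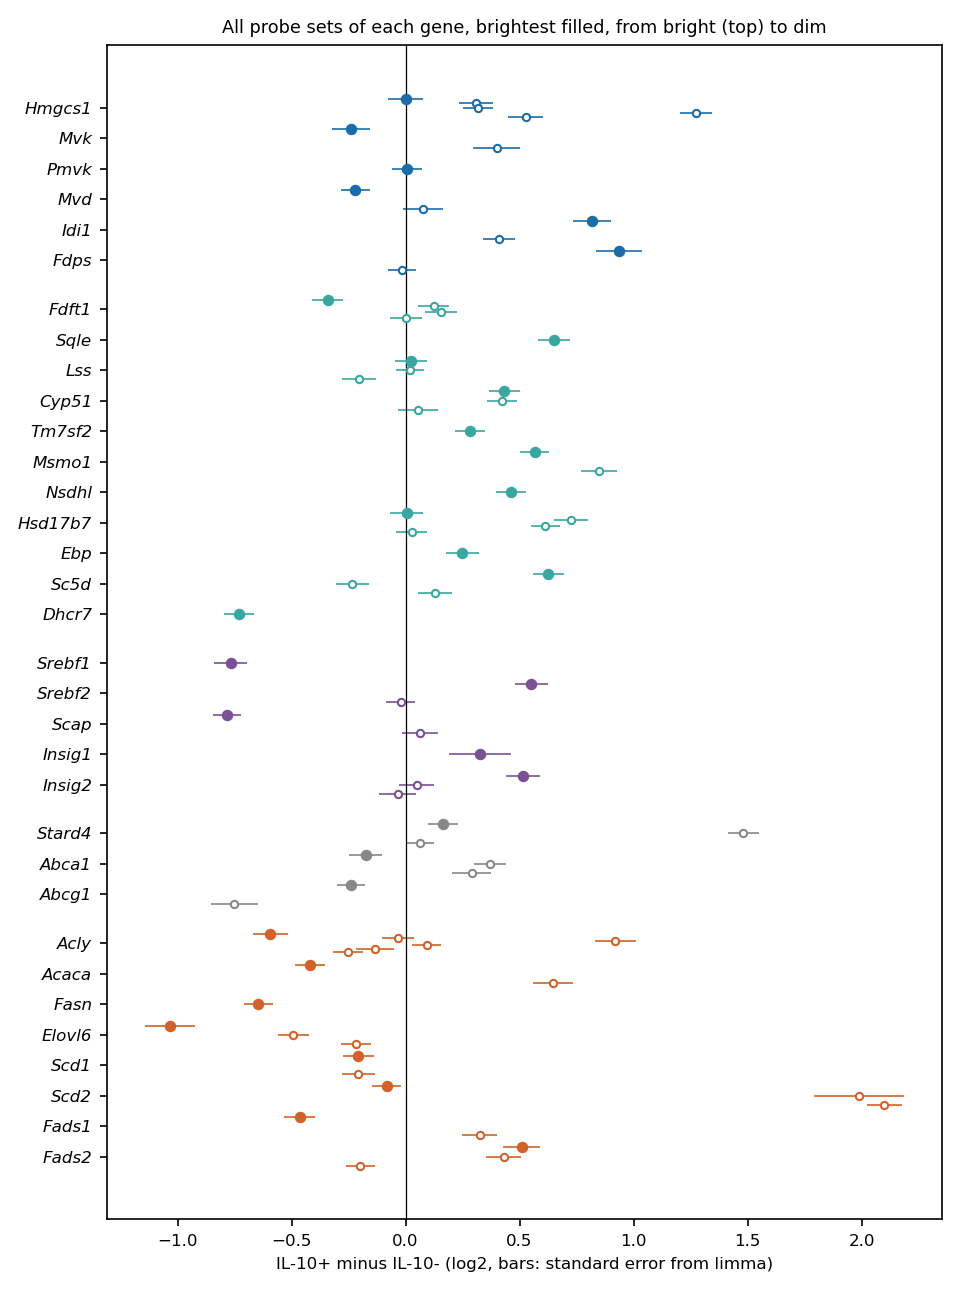
Difference between the groups of arrays (log2, horizontal axis, bars are standard errors from limma) for each of the 77 member probe sets, brightest filled, from bright to dim within a gene. Dimmer probe sets of Scd2, Stard4 and Hmgcs1 reach 2.10, 1.48 and 1.27, far to the right of the brightest ones.

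Other genes around these routes were counted from a list of 44, of which 39 were measured. By their brightest probe sets 5 rose, 10 fell and 24 did not pass, against the 8.37% and 22.9% of all genes, so their shares were near that background. Hsd17b12, a reductase of the elongation cycle, rose from 10.51 and 10.47 to 11.37 and 11.46 (0.92). Acsl4, which activates arachidonic acid, rose by 0.56. Ggps1, which makes geranylgeranyl diphosphate from the product of Fdps, rose by 0.33, and Stard3, a sterol carrier of late endosomes, by 0.27. Further probe sets were at 2.08 for Hsd17b12, at 0.84 and 1.56 for Acsl4, and at 0.23, 0.53 and 0.12 for Ggps1. Among the falls, Elovl5 (-0.95), an elongase, and Hacd3 (-0.92), a dehydratase of the same cycle as Hsd17b12, had further probe sets at -0.46 for Elovl5 and at -0.79 and 1.51 for Hacd3. Erlin1, an endoplasmic reticulum membrane protein that binds cholesterol, fell from 8.52 and 8.85 to 7.52 and 7.38 (-1.23, adjusted p = 0.000196). Gpam, which starts the synthesis of glycerolipids, fell by -0.55. The dimmer probe sets of Erlin1 (0.01, adjusted p = 0.927) and Gpam (0.22, 0.0544) did not pass. The number that rose was 11 after quantile normalization, 3 after median centring, and 3 and 2 without IL-10+ replicate 1 and 2.

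The split between the arms was steadier on the sterol side than on the fatty acid side. The median of the sterol genes stayed between 0.17 and 0.30 under the 12 alternative settings that give one, whereas that of the fatty acid genes went from -0.44 to -0.035 when the values of a gene's probe sets were averaged. With that mean 10 sterol genes rose and 1 fell, and 2 fatty acid genes rose and 3 fell, beside 12.2% and 18.4% of all genes.

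**Figure D5:**
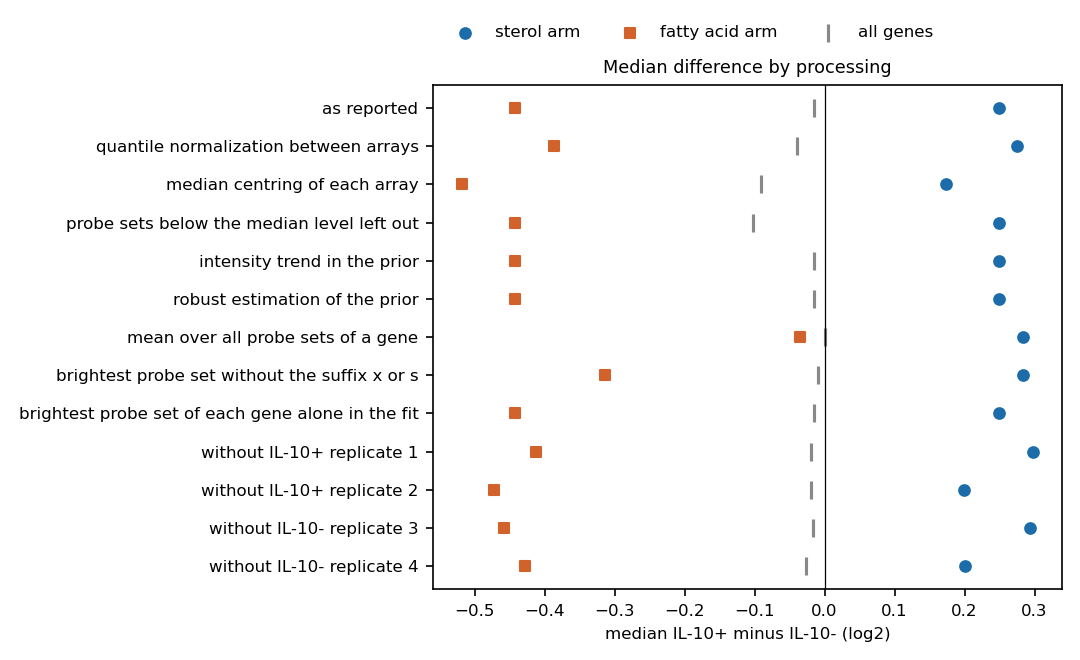
Median difference between the groups (log2, horizontal axis) for the sterol arm, the fatty acid arm and all genes, as reported and under 12 alternatives (vertical axis). The sterol median lies above 0 in each, and the fatty acid median comes close to 0 with the mean over all probe sets of a gene.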

How the data were processed

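Gene expression was measured on GeneChip Mouse Genome arrays of Affymetrix, 1 per sample, in 2 IL-10+ and 2 IL-10- samples. The authors brought the intensities of all arrays to 1 scale by variance stabilization in Bioconductor. The value they deposited for each probe set on each array was taken as log2. The log base of these values, the summary of probes into probe sets and the genome build are not given in the sources used here, while legends give differences as natural logs of the fold change. Variance stabilization compresses the differences of dim probe sets. The methods state another amount of RNA for labelling than the sample labels do.

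Of 45101 probe sets, 64 controls were set aside, and 45037 were compared in R 4.3.3 with limma 3.58.1 (eBayes after lmFit, two-sided moderated test, Benjamini-Hochberg adjustment over all probe sets, prior of 5.44 and 2 residual degrees of freedom). The fit was first tested on simulated data. Tables and figures were made with Python 3.11.15 and matplotlib 3.10.9. Names came from the platform annotation, in which 34945 probe sets name 1 gene and 932 several, the latter used for no gene. All 33 measured member symbols equal those of RefSeq by gene identifier. Promoters came from RefSeq (GRCm38.p6). The precision is limited by the 4 arrays, and an exact test of a single gene cannot go below p = 0.333.

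All members were described, and of the other pathway genes up to 4 passing ones in each direction by size. The members and lists were chosen with earlier results of these data known. Each result was recomputed after quantile normalization, after median centring, without the dimmer probe sets (under the median level), with a robust prior or one with a trend, with probe sets averaged by gene, with probe sets without the suffix x or s (a mark for shared sequence), with the brightest probe sets alone, at the stricter limit of the methods, and without each array. A natural log reading was added after seeing the data.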

Additional observations from a re-analysis of the deposited data

Results flagged for a closer look

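The control transcripts that are added to the RNA for labelling are no part of the comparison of genes. Their 5' probe sets were higher on the IL-10+ than on the IL-10- arrays by 1.11 on the log2 scale (median of 4 transcripts, from 0.62 to 1.96), the middle ones by 0.81 and the 3' ones by 0.089. These are values without a test, and with 2 arrays a group no sample could be checked against its group for standing apart.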

How the results depend on the processing

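No paired analysis was possible because the groups share no replicate numbers. Leaving out an array left 1 array in a group and 1 residual degree of freedom, and the lone array is assumed to vary like the other group. The stricter limit left 0 members higher and 1 lower, 0 and 0 of the sterol genes, 0 and 1 of the fatty acid genes, 0 and 0 of the regulators, and 0 and 1 of the other pathway genes. On the natural log reading, an alternative chosen after seeing the data, these were 2 and 4 members, 2 and 1 sterol genes, 0 and 1 fatty acid genes, 0 and 2 regulators, and 1 and 3 other pathway genes. With probe sets averaged by gene, 7 members fell in place of 11, 1 sterol gene fell in place of 3, 2 fatty acid genes rose and 3 fell, 1 regulator rose in place of 2, and 6 other pathway genes fell in place of 10. Without the suffixes x and s 1 sterol gene fell. Of the other pathway genes 11 rose after quantile normalization and 3 after median centring, in place of 5, and 2 to 7 with an array left out. Signs turned with that mean for Hmgcs1 (0.48, from -0.0003), Scd2 (1.34), Acaca (0.11) and the median of the transport genes (0.16), and without the suffixes for Mvd (0.077) and Fdft1 (0.12). That mean also turned differences that did not pass on either side, for Mvk (0.08), Lss (-0.05) and Abca1 (0.16). Of 396 differences of single members under the 12 alternatives that refit them or change the probe set, 341 kept direction and side of the threshold. The cause of these changes was not tested.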
